A study of Homo sapiens with 11 samples.

Results

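Keratins are the intermediate filament proteins of epithelial cells. Each filament is built from pairs of an acidic type I keratin and a basic type II keratin, so the keratins of a cell are usually described as partners, such as KRT5 with KRT14 or KRT8 with KRT18. In stratified epithelia such as the bladder lining, KRT5 and KRT14 are used as markers of basal cells and KRT13 of the intermediate layers of the urothelium. KRT8, KRT18, KRT19 and KRT20 are grouped as luminal keratins. Of these, only KRT20 is normally restricted to the umbrella cells that face the urine. The 10 epithelial keratins described here were taken by their gene symbols: KRT5, KRT14, KRT17 and KRT6A as basal keratins, KRT13 as the intermediate keratin, and KRT7, KRT8, KRT18, KRT19 and KRT20 as luminal and simple-epithelial keratins. All 10 were listed among the 28252 genes of the RT4 tables and among the 26237 promoters of the BEAS-2B tables.

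RT4, a human line from a non-invasive bladder cancer, was profiled by RNA-Seq in 3 groups of 2 libraries. Untreated (UT) cells had no nickel, Ni-E cells had 6 weeks in 100 μM NiCl2, and Ni-W cells had the same exposure and then 2 weeks in medium without nickel. BEAS-2B, an immortalized line of human bronchial epithelium, was profiled for H3K4me3, a histone mark of active promoters, with a single library for each of the same 3 conditions. The BEAS-2B Ni-W cells are the descendants of a single colony grown for more than 6 months after nickel, so clone and treatment cannot be told apart there. In RT4, replicate 2 of each group is the library whose title ends in Dup, and it was sequenced more deeply. The totals were 17075833 to 18280556 estimated counts in the replicate 1 libraries and 25721265 to 27736454 in the replicate 2 libraries, so each contrast is also given within each replicate.

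KRT7, KRT19, KRT8 and KRT18, the keratins of simple epithelia, were the most abundant keratin RNAs of RT4 cells, together with KRT17 at a lower level. RNA levels are given in TPM, which is corrected for transcript length and can be compared between genes. The 10 keratins summed to 12586 and 14048 TPM in the UT libraries, 14159 and 14594 TPM in the Ni-E libraries, and 13454 and 16960 TPM in the Ni-W libraries. They made up between 1.26% and 1.70% of all TPM of a library, and between 99.1% and 99.4% of the TPM of the 54 type I and type II keratins listed. KRT7, KRT19, KRT8, KRT18 and KRT17 alone made up at least 99.6% of the 10. Of the defining epithelial genes, EPCAM lay between 161 and 251 TPM and CDH1 between 159 and 331 TPM, while CLDN7 was at most 0.40 TPM. Some basal and stratified-epithelial genes were expressed as well. TP63 lay between 90.5 and 141 TPM, ITGB4 between 352 and 445 TPM, CDH3 between 106 and 131 TPM and IVL between 48.5 and 114 TPM. Others were low or absent, with the basal genes DSG3 at 0 in all 6 libraries and NGFR at most 2.44 TPM. Of 12 squamous differentiation genes, 5 were at 0 in all 6. Of 11 markers of other cell types, 8 were below 1 TPM in every library, with CD3E, COL1A2 and DCN at 0 in all 6, and the exceptions were ACTA2, COL3A1 and VWF.

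KRT20, the umbrella cell keratin, had the largest change in Ni-E vs UT among the 9 keratins tested. It stood at 11.07 and 11.27 TPM in the UT libraries, 0.25 and 0.11 TPM in the Ni-E libraries, and 1.59 and 1.37 TPM in the Ni-W libraries. The groups did not overlap, with UT the highest, Ni-E close to 0 and Ni-W between them. The estimated reads behind these levels were 177 and 297 in the UT libraries, 4 and 3 after exposure, and 22 and 37 after washout. KRT20 fell by 6.03 ± 0.41 (SE, n = 2 per group) on the log2 scale in Ni-E vs UT, with an adjusted p of 0.0085 in edgeR's quasi-likelihood test over 14502 genes. The ratio of its summed counts was 71.2-fold lower, with a 95% counting interval of 34.3 to 178, and the low counts of Ni-E cells leave the size of the change less certain than its direction. Within replicate 1 the log2 ratio was −5.43 and within replicate 2 it was −6.74.

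After nickel was removed, KRT20 remained below the UT level. It fell by 2.97 ± 0.32 on the log2 scale in Ni-W vs UT, 7.82-fold, with an edgeR adjusted p of 0.0294. The log2 ratios within the replicates were −2.91 and −3.03. Between Ni-W and Ni-E cells, KRT20 was 3.06 ± 0.42 higher on the log2 scale in Ni-W cells, with ratios of 2.52 and 3.71 within the replicates. This difference missed the threshold in edgeR (adjusted p = 0.178), whereas DESeq2 called it (adjusted p = 0.0016). Over all alternatives tried, including those that leave out a library, the adjusted p of this difference ranged from 0.0016 to 1.00.

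In GENCODE version 44 on GRCh38, KRT20 is a minus-strand gene of chromosome 17, spanning 40875889 to 40885242. The 250 bases before its start site, chr17:40885243-40885492, are shown because this is the promoter of the keratin that changed most. They are the RefSeq promoter sequence on GRCh38.p14, written 5′ to 3′ on the strand of the gene, with capitals for ATAAAA on either strand (TTTTAT is its reverse complement) and for CCAAT.
KRT20 promoter: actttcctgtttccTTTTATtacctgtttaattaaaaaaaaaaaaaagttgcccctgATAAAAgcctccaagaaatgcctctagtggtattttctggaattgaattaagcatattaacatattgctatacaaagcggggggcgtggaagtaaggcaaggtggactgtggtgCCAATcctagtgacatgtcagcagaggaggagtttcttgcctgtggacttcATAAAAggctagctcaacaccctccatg
A copy of ATAAAA, a sequence close to the TATA box, stood at −28 to −23 relative to the start site, with further copies at −193 to −188 and, on the reverse strand, at −236 to −231. CCAAT stood at −79 to −75. Of 35116 RefSeq promoters of the same length, 14.8% held ATAAAA on either strand and 32.0% held CCAAT. None of TATAAA (10.7% of promoters), GGGCGG (42.6%), TGANTCA (6.57%) and ACGTG (18.5%) was present, and the window held 2 CpG against a median of 11. ATAAAA was added to the search after the sequences had been read. The window of KRT5, a basal keratin that did not pass the test, also held ATAAAA, at −29 to −24 from the RefSeq start at 52520394, although GENCODE version 44 begins the gene upstream of it, at 52520530. These matches describe letters only.

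KRT13, a type I keratin of the intermediate urothelial layers and of non-cornified squamous epithelium, was the other keratin that fell. Its levels were 34.47 and 37.40 TPM in UT cells, 5.36 and 5.86 TPM in Ni-E cells, and 6.45 and 6.48 TPM in Ni-W cells. Both UT libraries were above all 4 nickel libraries, and the Ni-W libraries were slightly above the Ni-E libraries in TPM, while these overlapped on library-scaled counts. KRT13 fell by 2.69 ± 0.27 on the log2 scale in Ni-E vs UT, 6.47-fold, with an edgeR adjusted p of 0.0169. It fell by 2.52 ± 0.27 in Ni-W vs UT, 5.74-fold, with an edgeR adjusted p of 0.0294.

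The KRT13 ratios were much the same in both replicates, at −2.65 and −2.74 for Ni-E vs UT and −2.53 and −2.52 for Ni-W vs UT. Ni-W and Ni-E cells differed by 0.17 ± 0.26 on the log2 scale (adjusted p = 1.00), so no return of KRT13 toward the UT level was detected after 2 weeks without nickel. As a share of the 10 keratins, KRT13 was 0.27% in each UT library and between 0.038% and 0.048% in the nickel libraries. The contrasts with UT share the same UT libraries.

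**Figure D1:**
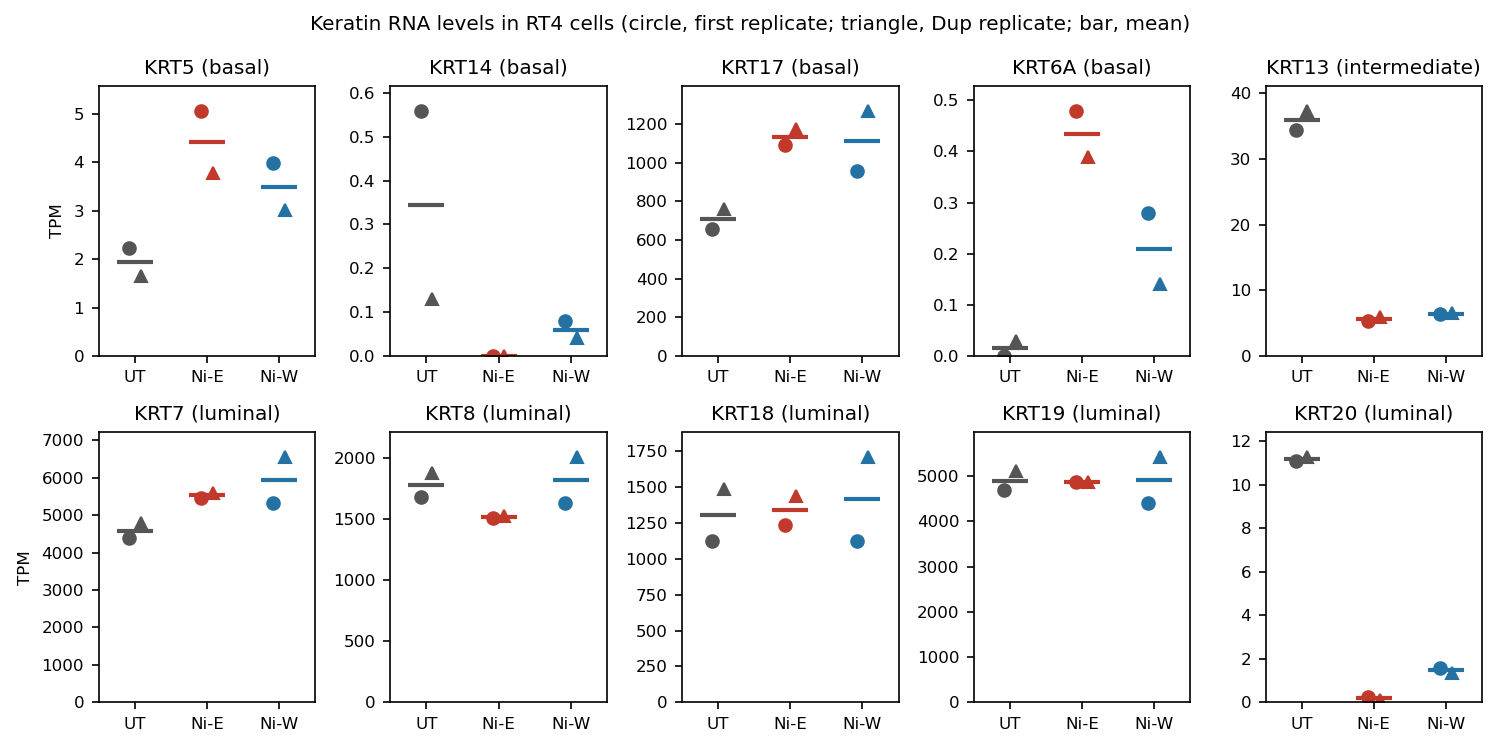
TPM (vertical axis, linear from 0, with its own range in each panel) of each keratin in the UT, Ni-E and Ni-W libraries of RT4 cells. Circles are replicate 1, triangles replicate 2 and bars the mean of the 2 libraries. KRT13 and KRT20 are highest in UT cells and lowest in Ni-E cells, with Ni-W at 6.45 and 6.48 against 5.36 and 5.86 TPM for KRT13, and at 1.59 and 1.37 against 0.25 and 0.11 TPM for KRT20.

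None of the basal keratins passed edgeR's test in the model without a block. This depended on the model, since a replicate block called KRT17, KRT5 and KRT6A in Ni-E vs UT and KRT17 and KRT5 in Ni-W vs UT. KRT5, the type II keratin of basal cells, held 2.22 and 1.65 TPM in UT cells, 5.07 and 3.78 TPM in Ni-E cells, and 3.99 and 3.01 TPM in Ni-W cells. Both UT libraries were below all 4 nickel libraries, although the level stayed low next to the simple keratins in each group. The log2 fold change of KRT5 was 1.18 ± 0.26 in Ni-E vs UT (edgeR adjusted p = 0.098) and 0.81 ± 0.26 in Ni-W vs UT (adjusted p = 0.356). The ratios within the replicates were 1.23 and 1.13, and 0.73 and 0.88. In DESeq2, KRT5 passed in Ni-E vs UT, with an adjusted p of 0.0473, and over all alternatives tried its adjusted p in this contrast ranged from 0.0042 to 0.612.

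KRT14, the usual type I partner of KRT5, was almost absent. It held 0.56 and 0.13 TPM in UT cells (8 and 3 estimated reads), 0 in both Ni-E libraries, and 0.08 and 0.04 TPM in Ni-W cells (1 read each). It did not pass the filter on low counts and was not tested. With 11 reads in UT cells against 0 in Ni-E cells, the 95% counting interval of the ratio allows a difference as small as 2.64-fold. Its sequence is close to that of KRT16 and KRT17, so reads may be divided among these genes when counts are estimated.

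KRT17, a keratin of basal cells and of injured or activated epithelium, was the only basal keratin at a high level. It held 655 and 760 TPM in UT cells, 1089 and 1176 TPM in Ni-E cells, and 956 and 1269 TPM in Ni-W cells. In TPM both UT libraries were below all 4 nickel libraries. On library-scaled counts the UT and Ni-W libraries overlapped. The log2 fold change was 0.65 ± 0.32 in Ni-E vs UT (edgeR adjusted p = 0.552) and 0.62 ± 0.32 in Ni-W vs UT (adjusted p = 0.746), and neither passed in the model without a block. With a replicate block both passed (edgeR adjusted p = 0.0034 and 0.0094). The ratios within the replicates were 0.77 and 0.56, and 0.43 and 0.75.

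KRT6A, a type II keratin induced in wounded and hyperproliferative epithelium, held 0 and 0.03 TPM in UT cells, 0.48 and 0.39 TPM in Ni-E cells, and 0.28 and 0.14 TPM in Ni-W cells. These levels rest on 1 read over both UT libraries, 24 over both Ni-E libraries and 10 over both Ni-W libraries. The count ratio of Ni-E to UT was 22.8, with a 95% counting interval of 3.72 to 939, and the edgeR adjusted p was 0.078. The near-identical KRT6B and KRT6C were listed at 0 TPM in all 6 libraries.

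None of KRT7, KRT8, KRT18 and KRT19, the abundant simple-epithelial keratins, passed the test in any of the 3 contrasts. KRT7, a type II keratin of glandular and transitional epithelium, held 4384 and 4779 TPM in UT cells, 5452 and 5593 TPM in Ni-E cells, and 5334 and 6549 TPM in Ni-W cells. KRT19, a type I keratin that is often paired with KRT7 or KRT8, held 4697 and 5099 TPM in UT cells, 4860 and 4857 TPM in Ni-E cells, and 4399 and 5418 TPM in Ni-W cells. KRT7 was higher in TPM in all 4 nickel libraries than in UT cells, though not on library-scaled counts, and KRT19 overlapped among the groups. The log2 fold change of KRT7 was 0.25 ± 0.28 in Ni-E vs UT and 0.34 ± 0.28 in Ni-W vs UT, and that of KRT19 was −0.04 ± 0.28 and −0.03 ± 0.28. The edgeR adjusted p of KRT7 was 0.956 and 0.992 in these contrasts.

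KRT8 and KRT18 form the first keratin pair of the embryo and the main pair of simple epithelia. KRT8 held 1682 and 1877 TPM in UT cells, 1510 and 1523 TPM in Ni-E cells, and 1627 and 2006 TPM in Ni-W cells. KRT18 held 1120 and 1483 TPM in UT cells, 1237 and 1435 TPM in Ni-E cells, and 1126 and 1708 TPM in Ni-W cells. KRT18 was higher in replicate 2 than in replicate 1 in each group, by more than the groups differed. In Ni-E vs UT, the log2 fold change was −0.25 ± 0.29 for KRT8 and 0.01 ± 0.39 for KRT18. In Ni-W vs UT it was 0.00 ± 0.29 for KRT8 and 0.10 ± 0.39 for KRT18. With standard errors of 0.28 to 0.39 on the log2 scale, small changes of these abundant keratins were not detectable.

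Of the 9 keratins tested, 0 rose and 2 fell in Ni-E vs UT. Over all 14502 genes tested, 1.45% were called higher and 0.71% lower in this contrast, a call being at least a 1.5-fold change with an adjusted p below 0.05. In Ni-W vs UT again 0 rose and 2 fell, KRT13 and KRT20, against 0.503% of all genes called higher and 0.0965% called lower. In Ni-W vs Ni-E, edgeR called 0 of the 9 keratins and 0% of all genes, while 1 keratin (KRT20) and 808 genes had an unadjusted p below 0.05, and DESeq2 called KRT20 and 139 genes in all. The median log2 fold change of the 9 keratins was 0.01 in Ni-E vs UT and 0.10 in Ni-W vs UT, beside −0.01 and 0.00 over all genes. Keratins whose groups did not overlap numbered 5 of 9 in Ni-E vs UT and 4 of 9 in Ni-W vs UT, where 39.6% and 29.2% of all genes did not overlap.

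The calls of KRT13 and KRT20 depended on single libraries, as did those over all genes, while the size of their changes varied little. With each of the 6 libraries left out in turn, the log2 fold change in Ni-E vs UT lay between −6.53 and −5.55 for KRT20. For KRT13 it lay between −2.87 and −2.49. Both lost their call in this contrast without either Ni-E library, as did every other gene, and KRT13 also without UT replicate 2. In Ni-W vs UT the changes lay between −2.74 and −2.32 for KRT13 and between −3.11 and −2.81 for KRT20. Neither kept its call there in any of these fits, where fewer genes were called as well.

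**Figure D2:**
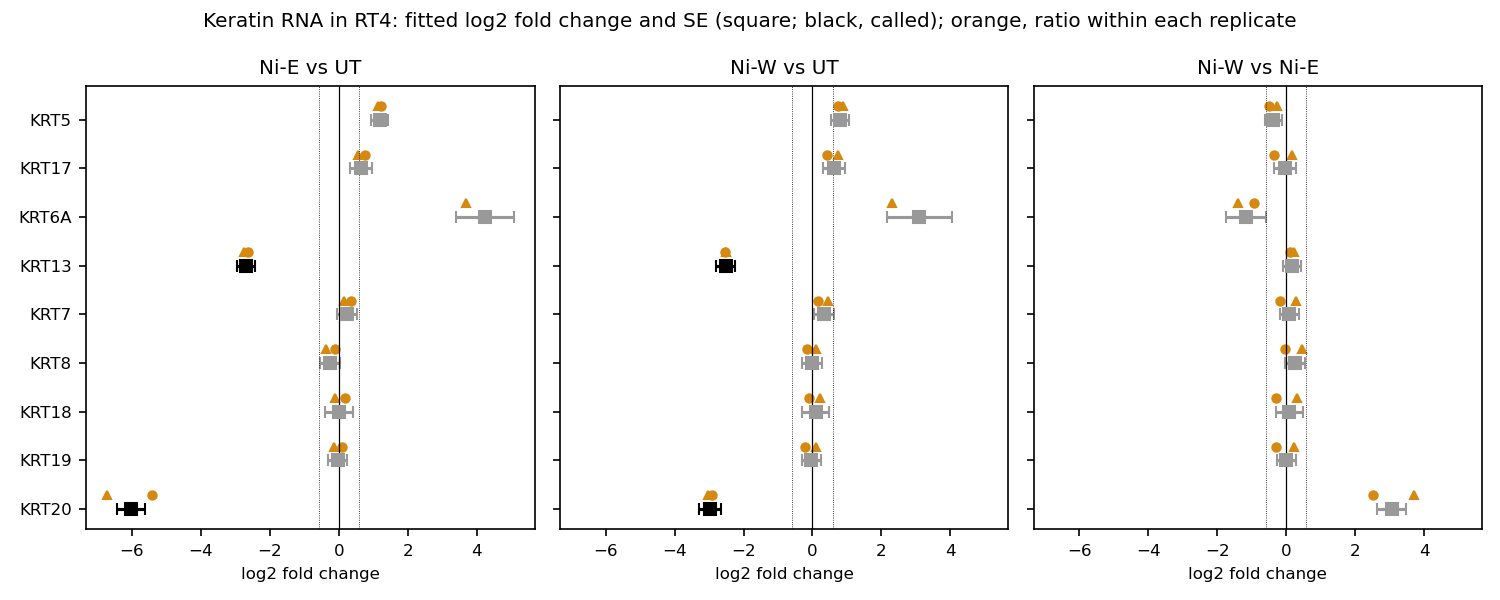
Log2 fold change (horizontal axis) of the 9 keratins tested in RT4 cells, for each of the 3 contrasts. Squares with bars are the edgeR estimate and its SE, black where called and grey where not, orange circles and triangles are the ratios within replicate 1 and replicate 2, and dotted lines mark 1.5-fold. KRT13 and KRT20 are called in both contrasts with UT, and no keratin is called in Ni-W vs Ni-E.

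The order of the keratins by TPM differed among the groups mainly at the low end. In UT cells KRT19 and KRT7 were highest and overlapped, and were followed without overlap by KRT8, KRT18, KRT17, KRT13, KRT20, KRT5, KRT14 and KRT6A. In Ni-E cells KRT7 was above KRT19, and KRT20 had moved below KRT5 and KRT6A. In Ni-W cells KRT20 was again above KRT6A but below KRT5, and the neighbours KRT7 and KRT19, KRT8 and KRT18, and KRT18 and KRT17 overlapped. The ratio of KRT5 to KRT20 in TPM was 0.201 and 0.146 in UT cells, 20.3 and 34.4 in Ni-E cells, and 2.51 and 2.20 in Ni-W cells. The Ni-E ratios rest on 4 and 3 estimated reads of KRT20.

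Ratios of keratins within a library do not depend on how libraries are scaled. The KRT7 to KRT19 ratio in TPM was 0.933 and 0.937 in the UT libraries, 1.12 and 1.15 in the Ni-E libraries, and 1.21 in each Ni-W library. The ratio of type II to type I keratins over the 10 was 0.931 and 0.901 in the UT libraries, 0.969 and 0.953 in the Ni-E libraries, and 1.07 and 1.02 in the Ni-W libraries. Neither ratio overlapped between any of the 3 groups. With 2 libraries against 2, an exact two-sided permutation test cannot go below p = 0.333, which is the value both ratios gave in all 3 contrasts (0.4995 after Benjamini-Hochberg adjustment over 12 such tests). The KRT8 to KRT18 ratio was 1.501 and 1.27 in the UT libraries, 1.22 and 1.06 in the Ni-E libraries, and 1.44 and 1.17 in the Ni-W libraries, and was lower in replicate 2 of each group. The basal keratins, almost wholly KRT17, made up 5.22% and 5.42% of the 10 in the UT libraries, 7.73% and 8.08% in the Ni-E libraries, and 7.14% and 7.50% in the Ni-W libraries. From bulk RNA, a change in the share of cells that hold a keratin and a change in its RNA per cell cannot be told apart.

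**Figure D3:**
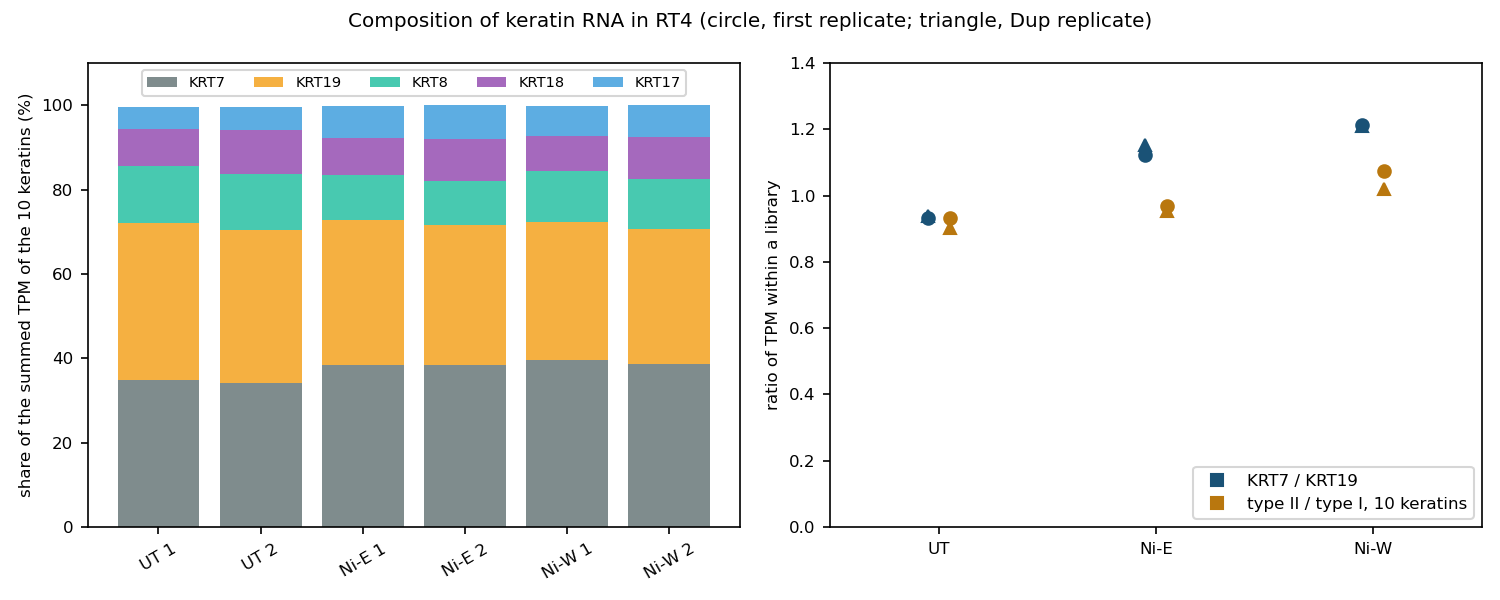
Left, share (%) of the summed TPM of the 10 keratins taken by the 5 most abundant, for each RT4 library. Right, ratio of KRT7 to KRT19 and of type II to type I keratins within each library, with circles for replicate 1 and triangles for replicate 2. The KRT7 to KRT19 ratio is 0.933 and 0.937 in UT cells and at least 1.12 in the nickel libraries.

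Of the 44 other type I and type II keratins, 7 reached 1 TPM in a library: KRT10, KRT15, KRT16, KRT23, KRT33A, KRT78 and KRT80. Of the 5 other type I keratins tested, edgeR called KRT23 in Ni-E vs UT. DESeq2 called KRT23 and KRT33A in Ni-E vs UT and KRT23 in Ni-W vs Ni-E. In edgeR, 3 of the 5 had an unadjusted p below 0.05 in Ni-E vs UT and 4 in Ni-W vs UT. Over all 14502 genes, 1773 and 1323 did. The median log2 fold change of the 5 was −0.69 in Ni-E vs UT and −1.20 in Ni-W vs UT. KRT23 held 7.53 and 9.43 TPM in UT cells, 0.37 and 0.26 TPM in Ni-E cells, and 3.01 and 3.20 TPM in Ni-W cells. KRT23 fell by 4.79 ± 0.40 on the log2 scale in Ni-E vs UT (edgeR adjusted p = 0.0110), and its Ni-W vs UT change of −1.35 ± 0.31 did not pass (adjusted p = 0.182). Of the 3 other type II keratins tested, edgeR and DESeq2 called 0 in any contrast, and 1 had an unadjusted p below 0.05 in Ni-E vs UT.

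The umbrella cell genes were uroplakins, the membrane proteins of the urothelial surface. Of the 5 tested, edgeR called 0 higher and 1 lower in Ni-E vs UT, with a median log2 fold change of −0.81, and none was called in Ni-W vs UT, with a median of −0.01. UPK1A held 70.57 and 92.53 TPM in UT cells, 16.10 and 18.47 TPM in Ni-E cells, and 39.58 and 44.42 TPM in Ni-W cells. UPK1A fell by 2.27 ± 0.33 on the log2 scale in Ni-E vs UT (edgeR adjusted p = 0.0376). DESeq2 called 3 uroplakins in this contrast, UPK1A, UPK1B and UPK2, and 0 in Ni-W vs UT, where 1 had an unadjusted p below 0.05 in edgeR. UPK3B went the other way in Ni-E vs UT and was not called, at 293 and 313 TPM in UT cells and 391 and 406 TPM in Ni-E cells. In Ni-W vs Ni-E the median log2 fold change of the 5 was 1.04. There 4 had an unadjusted p below 0.05 in edgeR, which called 0, and DESeq2 called UPK1B. Across the 6 libraries, the log2 levels of KRT20 had a Pearson correlation of 0.953 with UPK1A, 0.964 with KRT23 and 0.895 with KRT13, as a description over libraries that share the same 3 groups. These genes were all called lower in Ni-E vs UT, as KRT20 was, so high correlations follow from the choice of genes. The correlations of KRT20 with the other uroplakins were not computed.

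Of the 9 basal cell genes tested, edgeR called 1 higher and 0 lower in Ni-E vs UT (COL17A1) and DESeq2 called 2 (COL17A1 and CD44), and edgeR called 0 in Ni-W vs UT, where 2 had an unadjusted p below 0.05 and DESeq2 called 2 (COL17A1 and NGFR). COL17A1, the hemidesmosomal collagen that helps to anchor basal keratins to the basement membrane, held 37.44 and 31.27 TPM in UT cells, 90.22 and 74.67 TPM in Ni-E cells, and 76.29 and 51.89 TPM in Ni-W cells. COL17A1 rose by 1.253 ± 0.16 on the log2 scale in Ni-E vs UT (edgeR adjusted p = 0.0266). CD44, an adhesion receptor of basal cells, was at 98.07 and 67.27 TPM in UT cells and at 181.86 and 130.37 TPM in Ni-E cells (edgeR adjusted p = 0.135). TP63, the transcription factor of basal cells, was at 118 and 90.5 TPM in UT cells and at 125 and 105 TPM in Ni-E cells, and did not pass.

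Of the 6 squamous differentiation genes tested, edgeR called 1 higher and 1 lower in Ni-E vs UT, and DESeq2 called SERPINB4 as well. In Ni-W vs UT edgeR called 0, with 3 at an unadjusted p below 0.05, and DESeq2 called 2 (SERPINB3 and SERPINB4). Involucrin (IVL), a protein of the cornified envelope, held 113.98 and 112.07 TPM in UT cells, 50.9 and 48.5 TPM in Ni-E cells, and 82.8 and 78.5 TPM in Ni-W cells, with a log2 fold change of −1.20 ± 0.19 in Ni-E vs UT (edgeR adjusted p = 0.0458). SERPINB3, a protease inhibitor of squamous epithelium, rose from 0 and 0.04 TPM to 1.20 and 0.94 TPM (edgeR adjusted p = 0.0365), so the called members of this group moved in opposite directions. Of the 15 genes that link or organise keratin filaments, such as PLEC, DSP and JUP, edgeR and DESeq2 called 0 in any contrast, and 1 had an unadjusted p below 0.05 in Ni-E vs UT. The 14 epithelial transcription factors, such as GATA3, FOXA1 and PPARG, and the 7 epithelial identity genes tested gave 0 calls with either tool, with 2 and 1 genes at an unadjusted p below 0.05 in Ni-E vs UT.

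Among 6 other intermediate filament genes tested, NEFL, the light neurofilament subunit, rose by 1.83 ± 0.26 on the log2 scale in Ni-E vs UT (edgeR adjusted p = 0.0363), from 2.19 and 1.35 TPM to 7.25 and 5.24 TPM. VIM, the mesenchymal filament gene vimentin, was at most 0.31 TPM in any library. The 11 markers of other cell types summed to between 9.50 and 10.28 TPM in UT cells, between 40.61 and 41.97 TPM in Ni-E cells, and between 37.35 and 47.99 TPM in Ni-W cells. Of the 4 that were tested, edgeR called 1 higher in Ni-E vs UT and in Ni-W vs UT, and DESeq2 called COL3A1 as well. The gene that edgeR called was that of smooth muscle actin, ACTA2, at 6.61 and 7.48 TPM in UT cells, 36.26 and 36.99 TPM in Ni-E cells and 41.20 and 34.18 TPM in Ni-W cells, and its part in the keratin changes was not tested.

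Among 11135 genes with a mean CPM of at least 5, the genes with log2 levels most like those of KRT20 over the 6 libraries were SAPCD2 (Pearson r = 0.998) and HENMT1 (r = 0.996). Those most like KRT13 were CCDC97 (r = 0.995) and COX14 (r = 0.993). The ranges of these genes were much smaller than those of the keratins, with SAPCD2 between 32.63 and 49.03 TPM. With 6 points, correlations of this size describe the shape only.

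In BEAS-2B cells, H3K4me3 was high at the promoters of KRT7, KRT8 and KRT18, moderate at KRT17 and low at the other keratins. The values are RPKM over 4 kb around the start site, with 95% Wilson counting intervals, and with 1 library per condition no test was possible. The KRT7 promoter held 7.15 RPKM in the UT library (812 reads, 6.68 to 7.66), 8.27 RPKM in the Ni-E library (1240 reads, 7.82 to 8.74) and 4.49 RPKM in the Ni-W library (538 reads, 4.13 to 4.89). KRT8 held 7.33, 7.11 and 4.48 RPKM, and KRT18 held 7.26, 6.98 and 4.38 RPKM in the same order. These promoters were the most marked of the 10, between percentiles 79.3 and 80.3 of all promoters in UT cells.

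KRT8 and KRT18 are neighbours on chromosome 12. KRT8 (minus strand) spans 52897187 to 52949954 and KRT18 (plus strand) spans 52948871 to 52952906, with start sites 1083 bases apart in GENCODE version 44. Windows of 4 kb around these starts would share 2917 bases. RefSeq places a KRT8 start at 52926469, where the windows would share none, and which start was used for the deposited values is not given in the sources used here, so their H3K4me3 values may not be independent. Reads from the overlapping ends of the genes could also be divided between them where the strand is not kept.

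KRT17 was the only basal keratin above 1 RPKM. It held 1.93 RPKM in the UT library (219 reads, 1.69 to 2.20), 1.17 RPKM in the Ni-E library (176 reads, 1.01 to 1.36) and 1.30 RPKM in the Ni-W library (155 reads, 1.11 to 1.52). Its level was near that of the median promoter, which was 1.57 RPKM for UT, 1.39 RPKM for Ni-E and 1.12 RPKM for Ni-W. The other basal keratins were below that median, with KRT6A at 0.661, 0.447 and 0.251 RPKM, KRT14 at 0.396, 0.300 and 0.200 RPKM, and KRT5 at 0.220, 0.300 and 0.150 RPKM. KRT13 was also below it, at 0.176, 0.393 and 0.217 RPKM.

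KRT19, which shared the highest RNA level in RT4 cells, had little H3K4me3 in BEAS-2B cells, with 0.432 RPKM in the UT library (49 reads), 0.440 RPKM in the Ni-E library (66 reads) and 0.735 RPKM in the Ni-W library (88 reads). KRT20 was listed at 0 in all 3 libraries. So were 849 genes in all, including genes that every cell uses such as NSF and PIP4K2B, so that no level is read from the 0 of KRT20. Of the 43 other keratins listed, KRT80 alone reached 1 RPKM, with 2.49 in UT cells. The epithelial genes CDH1 (1.02 RPKM) and EPCAM (2.21 RPKM) were less marked in UT cells than VIM (8.95 RPKM) and COL1A1 (8.74 RPKM), a gene of fibroblasts. Of the 11 markers of other cell types, 3 reached 1 RPKM in UT cells, namely COL1A1, ACTA2 and PDGFRB. COL1A2 (0.476 RPKM), COL3A1 (0.167 RPKM), DCN (0.229 RPKM) and LUM (0.396 RPKM) did not.

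To compare conditions, each library was divided by its median promoter, and a 1.5-fold ratio was taken as a size rule among the 14127 promoters with at least 1 RPKM in a library. Of the 4 keratins in this set, KRT7, KRT8, KRT17 and KRT18, 0 passed it in any contrast. In Ni-E vs UT, 1.01% of promoters were higher and 0.595% lower by this rule. In Ni-W vs UT the shares were 4.39% and 18.4%, and in Ni-W vs Ni-E they were 4.07% and 30.3%. After this scaling, the median log2 ratio over the 14127 promoters was 0.11 in Ni-E vs UT, −0.32 in Ni-W vs UT and −0.41 in Ni-W vs Ni-E. A scaled ratio below 1 in the contrasts with Ni-W is thus not in itself lower than the typical promoter of this set. The scaled ratio of KRT7 was 1.31 in Ni-E vs UT, with a counting interval of 1.20 to 1.43, and 0.880 in Ni-W vs UT (0.788 to 0.983). For KRT17 it was 0.688 in Ni-E vs UT (0.561 to 0.843) and 0.941 in Ni-W vs UT (0.761 to 1.16).

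The direction of the Ni-W vs UT differences at KRT7, KRT8 and KRT18 depended on the scaling. On the log2 scale, the Ni-W vs UT difference was −0.18 for KRT7, −0.22 for KRT8 and −0.24 for KRT18 after median scaling, and 0.10, 0.06 and 0.04 after quantile normalization. Without scaling it was −0.67, −0.71 and −0.73, at a median of −0.81 over the 14127 promoters, so these keratins were lower by no more than the typical promoter. For KRT17 the difference was −0.09 after median scaling, −0.03 after quantile normalization and −0.57 without scaling. KRT19, outside the size rule because of its low level, had a scaled Ni-W to UT ratio of 2.38 (counting interval 1.66 to 3.46), and 1.70 (1.19 to 2.47) without scaling. It was higher in Ni-W than in UT cells under quantile normalization also, by 0.88 on the log2 scale. Differences of this size were not particular to KRT19 among low-marked keratins, such as KRT24 at 0.185 RPKM in UT and 0.56 RPKM in Ni-W cells. Of the other type I keratins with reads in UT cells, KRT10, KRT24, KRT25, KRT26, KRT27 and KRT28 were higher in Ni-W cells without scaling. KRT9, KRT15, KRT16, KRT32, KRT35, KRT36 and KRT38 were lower.

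**Figure D4:**
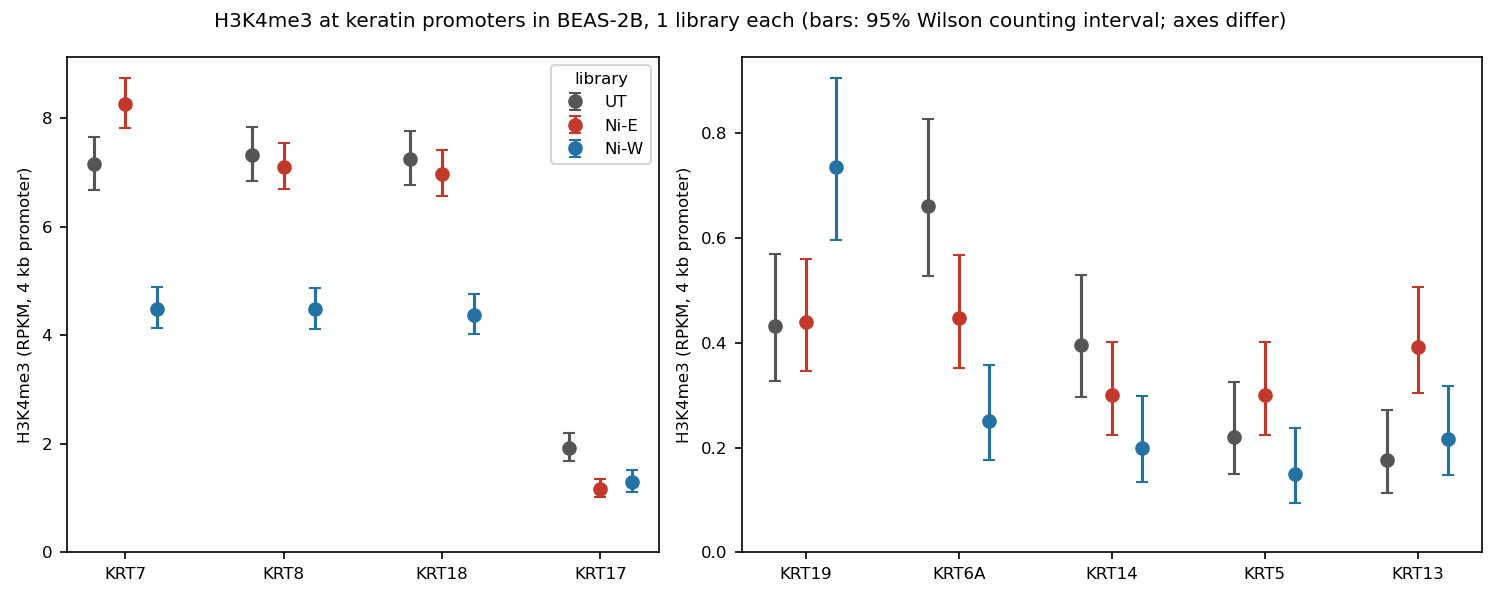
H3K4me3 in RPKM over the 4 kb promoter (vertical axes, linear from 0, with a different range on each side) of 9 keratins in the 3 BEAS-2B libraries, 1 for each condition, before median scaling. Bars are 95% Wilson counting intervals, and KRT20 is listed at 0 and not drawn. KRT7, KRT8 and KRT18 lie above 4 RPKM, KRT17 between 1 and 2, and the others below 1.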

How the data were processed

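The authors deposited RSEM estimated (expected) counts and TPM for each RT4 gene. FPKM was deposited too and not used. The paper's methods name STAR and hg19 for RNA-Seq, and whether the estimated counts come from that alignment is not given in the sources used here. For BEAS-2B the authors deposited promoter RPKM, 2 kb on each side of the start site, from BWA alignments to hg38. Reads were recovered from the RPKM steps, to within 0.1 reads.

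Estimated counts were rounded and tested with edgeR 4.0.16 (quasi-likelihood, TMM, filterByExpr, 1 model of 3 groups, no block, Benjamini-Hochberg over 14502 genes). Promoter RPKM was divided by the library median. Alternatives were DESeq2 1.42.0, RLE, other filters, limma 3.58.1 on log2(TPM + 1), a replicate block, only the groups compared, and each library left out. Intervals cover counting error only. The paper describes biological replicates, but the labels do not say whether Dup libraries came from separate cultures, so p-values may measure technical spread.

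The keratins and lists were chosen with earlier results of these data known. Named are all 10 keratins, called list genes, and the 2 genes most correlated with each called keratin. Other genes, such as NSF, PIP4K2B, TP63, CD44, EPCAM and VIM, were named after their values were seen. BEAS-2B input libraries were not analysed here.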

Additional observations from a re-analysis of the deposited data

How the results depend on the processing

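KRT13 and KRT20 were lower in Ni-E and Ni-W than in UT cells under all alternatives that gave a value, but whether they were called varied. Of the 9 keratins (2 called in each contrast with UT, 0 in Ni-W vs Ni-E), at least 10 counts in every library left 1 and 1 called, since KRT20 is then removed; limma on log2(TPM + 0.1) left 1 in Ni-W vs UT (KRT13), only the groups compared left 0, and DESeq2 called 1 in Ni-W vs Ni-E. With each library left out, 0 to 2 were called in Ni-E vs UT and 0 in Ni-W vs UT.

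With a replicate block, 5, 4 and 1 keratins were called in Ni-E vs UT, Ni-W vs UT and Ni-W vs Ni-E. KRT17 (adjusted p = 0.0034), KRT5 (0.0042) and KRT6A (0.0116) were added in Ni-E vs UT, KRT17 (0.0094) and KRT5 (0.0441) in Ni-W vs UT, and KRT20 (0.0030) in Ni-W vs Ni-E. Deviations from the group means correlated at 0.657, 0.764 and 0.689 between libraries of the same replicate over 14502 genes, but the labels name no shared batch and each contrast has only 2 pairs, so the numbers were not taken as pairs. The block also turned KRT19 in Ni-W vs Ni-E to −0.031.

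Over all genes, edgeR called 314, 87 and 0 in the 3 contrasts. DESeq2 called 734, 437 and 139, the replicate block 1833, 1243 and 655, a filter of at least 10 counts 209, 54 and 0, no filter 449, 193 and 14, limma on log2(TPM + 1) 170, 79 and 0, limma on log2(TPM + 0.1) 173, 77 and 11, and only the groups compared 354, 0 and 0. With each library left out the counts were 0 to 320, 0 to 38 and 0. The cause of these differences was not tested.

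The other reversals were of uncalled values near 0. KRT8 in Ni-W vs UT was 0.0240 with limma on log2(TPM + 1) or log2(TPM + 0.1) and 0.0027 with only the groups compared. With each library left out, Ni-E vs UT went from −0.29 to 0.38 for KRT18 and from −0.22 to 0.17 for KRT19, and Ni-W vs UT from −0.040 to 0.65 for KRT7, −0.39 to 0.31 for KRT8, −0.48 to 0.52 for KRT18 and −0.41 to 0.28 for KRT19. Ni-W vs Ni-E went from −0.48 to 0.33 for KRT17, −0.046 to 0.37 for KRT13, −0.29 to 0.41 for KRT7, −0.14 to 0.57 for KRT8, −0.49 to 0.51 for KRT18 and −0.38 to 0.32 for KRT19.

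For H3K4me3, 0 keratins passed 1.5-fold after median scaling. Without scaling 1 passed in Ni-E vs UT, 3 in Ni-W vs UT and 3 in Ni-W vs Ni-E. The unscaled median log2 ratio over the 14127 promoters was −0.07, −0.81 and −0.72 in these contrasts. In both contrasts with Ni-W the median promoter was thus itself lower by more than 1.5-fold. Under a lower size rule 2 passed in Ni-E vs UT and 4 in Ni-W vs Ni-E, where the scaled medians were 0.11 and −0.41. The shares of all promoters passing under these alternatives were not computed, so the counts do not set keratins apart. Low read counts limit KRT14, KRT6A and KRT20 in RT4 cells, and the lack of replicates limits every BEAS-2B difference.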
